A study of Mus musculus with 10 samples.

Results

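The clustered protocadherins are the protein-coding genes of mouse chromosome 18 whose GENCODE M21 symbol begins with Pcdha, Pcdhb or Pcdhg. This rule found 57 genes among the 55471 genes counted, namely 14 of the alpha cluster, 22 of the beta cluster and 21 of the gamma cluster. The rule uses names and position only, although it was written with earlier results of these data known. The libraries were made from total RNA of primary mouse microglia, the resident macrophages of the brain, of WT genotype. In 5 libraries labelled knockdown the cells had received gapmers against the long noncoding RNA 3222401L13Rik, and in 5 control libraries they had received control gapmers. A gapmer is an antisense oligonucleotide that directs RNase H to the RNA it pairs with. All cells were kept in DMEM with serum and antibiotics, and libraries came from a stranded total RNA kit for small inputs. The sources used here do not state treatment time, gapmer dose, age of the mice, or whether the 5 libraries of a group came from separate cultures or animals. The p-values therefore measure the spread between these libraries, which may be technical.

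Protocadherins are cell adhesion molecules of the cadherin superfamily. In the mouse alpha and gamma clusters, each gene has its own large variable exon, with its own promoter, that is spliced to constant exons common to the cluster, whereas the beta genes have no common constant exons. Single neurons express different combinations of these isoforms, and homophilic recognition between identical combinations underlies self-avoidance of neurites. The factor CTCF and the cohesin complex take part in the choice of promoter, and DNA methylation silences the promoters not chosen. These genes are known mainly for their roles in neurons, not in microglia.

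On GRCm38, the genome build in the submitters' processing notes, all 3 clusters lie on the plus strand. The alpha genes span chr18:36930184-37187661, the beta genes chr18:37264938-37524479 and the gamma genes chr18:37661793-37841873. The targeted gene 3222401L13Rik lies between the beta and the gamma cluster at chr18:37655451-37661742, on the same strand, and ends 50 bases before the first gamma gene, Pcdhga1. It is annotated as 1 exon of 6292 bases, none of which is shared with an exon of another gene. Its reads numbered 22, 38, 24, 33 and 29 in the libraries labelled knockdown, against 30, 29, 28, 33 and 34 in the control libraries. The groups overlapped. The log2 fold change, labelled knockdown over control, was -0.17 (SE 0.23, 95% interval -0.63 to 0.29, adjusted p = 0.541 by edgeR's quasi-likelihood test with Benjamini-Hochberg adjustment), so the labels are not borne out by lower counts of the targeted gene.

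In units of 1000000 reads, depth ranged over 5.59 to 6.64 in the group labelled knockdown and 4.32 to 5.64 in the control group. Replicates 1 to 3 of both groups were read on lane 7 and replicates 4 and 5 on lane 8. Both groups also carried reads of genes that microglia are not known to use, among them the 1135 protein-coding olfactory receptor genes. Their reads per kilobase of exon per 1000000 reads, called olfactory density from here on, averaged 0.258 ± 0.0677 in the libraries labelled knockdown and 0.602 ± 0.148 in the control libraries (SD, n = 5 each). No library labelled knockdown reached the lowest control library (p = 0.00794, the lowest value possible, two-sided exact permutation test). The levels of the clusters, of most members named below and of some of the other lists are therefore also given as a read density over the olfactory density of the same library, where 1 means as many reads per kilobase as an average olfactory receptor gene. This ratio needs no scaling between libraries, but what the olfactory density stands for was not tested. Among 1134 olfactory receptor genes with unshared exon bases, the ratio had a median of 0.81 and a 95th percentile of 2.39, and 86 genes (7.58%) were above 2.

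Whether a gene had any reads went with whether its exons were its own. Of 763 genes with no exon base of their own on their strand, 762 had 0 reads in every library, against 11.1% of genes with such bases. A further 458 genes had exon bases of their own on their strand, all of them covered by exons on the other strand. Of these, 99.8% also had 0 reads, and the 132 with 500 or more such bases had 0 reads in total. The constant exons of the alpha and gamma clusters are listed under every gene of their cluster, so under this pattern of counting they add no reads, and each value describes a variable exon or other private sequence. Exon lengths were summed over genes, so a constant exon counts once for every gene that lists it. On this sum, unshared exon sequence came to 34.9 of 77.9 kb in the alpha cluster and 91.8 of 92.7 kb in the beta cluster. In the gamma cluster it came to 64.2 of 111.9 kb. The read densities use this unshared length.

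The members with almost no reads were among those covered by other genes. Pcdhga10 had 0 reads in all 10 libraries, and antisense exons of Gm26672 cover all 2613 of its unshared bases. Pcdha4 had 0 or 1 read per library, and 2410 of its bases are shared with Gm42416, a gene model that also holds exons of the gamma cluster. In 4 other members the length free on the same strand is over 1.5 times the length free on both strands, namely Pcdhgc3, Pcdhga11, Pcdhb12 and the Pcdha11 entry ENSMUSG00000102206. Over the bases free on both strands, the ratio to olfactory density that is used below was 4.04 in libraries labelled knockdown and 3.88 in control libraries for Pcdhb12, where the longer length gave 1.48 in libraries labelled knockdown and 1.42 in control libraries. It was 4.45 in libraries labelled knockdown and 4.55 in control libraries for Pcdhga11, where the longer length gave 2.12 in libraries labelled knockdown and 2.17 in control libraries. Another entry, ENSMUSG00000007440, carries the same symbol Pcdha11, and the 2 were kept apart by identifier. The file has no protein-coding gene with the symbol Pcdha10, and Pcdhgb8, a polymorphic pseudogene, was not a member.

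The gamma cluster stood above the other clusters in read density in both groups. The alpha and beta clusters lay above the olfactory density in every library, at ratios of 1.19 to 1.69. For the gamma cluster the ratio was 3.26, 4.30, 5.25, 3.70 and 4.43 in the libraries labelled knockdown, against 2.47, 2.62, 2.66, 2.38 and 2.95 in the control libraries. The lowest library labelled knockdown was above the highest control library. The means were 4.19 ± 0.761 in the libraries labelled knockdown and 2.62 ± 0.220 in the control libraries (SD, n = 5 each). On lane 7 alone the means were 4.27 in libraries labelled knockdown and 2.59 in control libraries, and on lane 8 alone they were 4.06 in libraries labelled knockdown and 2.66 in control libraries.

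**Figure D1:**
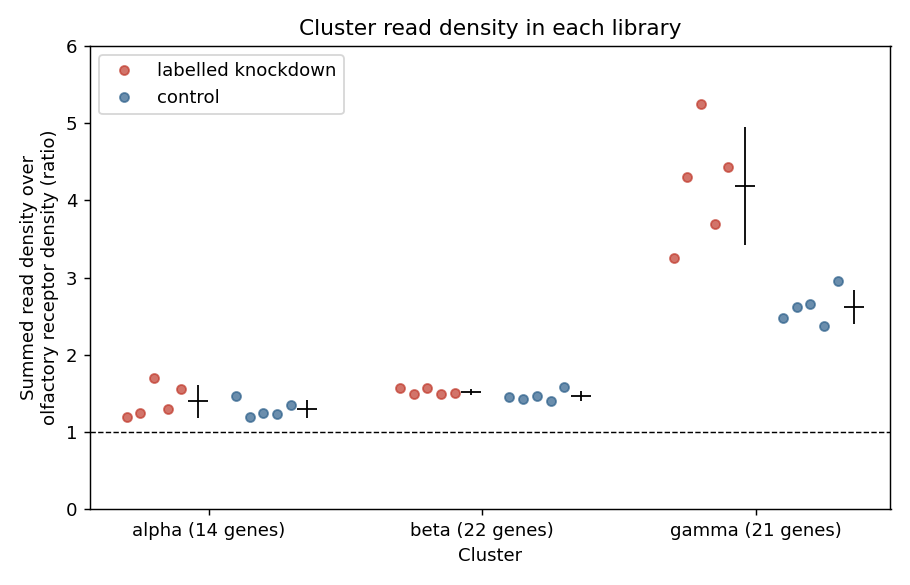
Read density of each cluster over olfactory density (ratio, vertical axis) for the alpha, beta and gamma clusters, with the libraries labelled knockdown left of the control libraries. Points are libraries and bars are means ± SD (n = 5); the gamma values lie between 3.26 and 5.25 in libraries labelled knockdown and between 2.38 and 2.95 in control libraries, while the alpha and beta values of both groups lie between 1.19 and 1.69.

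For the beta cluster the ratio averaged 1.52 ± 0.0389 in the libraries labelled knockdown (range 1.49 to 1.57) and 1.47 ± 0.0693 in the control libraries (range 1.40 to 1.58). For the alpha cluster it averaged 1.40 ± 0.217 in the libraries labelled knockdown (range 1.19 to 1.69) and 1.30 ± 0.113 in the control libraries (range 1.19 to 1.47). In both clusters the groups overlapped. No p is given for these cluster ratios, since they are scores over the members.

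Counts and ratios differed in direction between the groups, as each ratio divides by an olfactory density that was lower in the libraries labelled knockdown. The alpha cluster held 63 to 92 reads per library in the group labelled knockdown and 113 to 147 in the control group. The beta cluster held 180 to 278 reads per library in the group labelled knockdown and 349 to 463 in the control group. In both clusters every library labelled knockdown was below every control library. The gamma cluster held 368, 399, 423, 483 and 398 reads in the libraries labelled knockdown, against 443, 596, 519, 506 and 456 in the control libraries, with an overlap.

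In counts per 1000000 reads (CPM) after TMM scaling, the summed alpha level averaged 13.3 ± 1.99 in the libraries labelled knockdown and 25.4 ± 3.74 in the control libraries, a ratio of 0.522. The beta level averaged 38.9 ± 8.91 CPM in the libraries labelled knockdown and 76.1 ± 12.95 CPM in the control libraries, a ratio of 0.511. The gamma level averaged 72.6 ± 7.31 CPM in the libraries labelled knockdown and 94.9 ± 17.5 CPM in the control libraries, a ratio of 0.765 (SD, n = 5 each in all 3 clusters). The gamma total thus differed less between the groups than the totals of the other clusters, on this scale. These are bulk samples, in which fewer cells of a type and less RNA per cell cannot be told apart.

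When the reads expected from the olfactory density were taken away, 54.7 ± 5.45 CPM of gamma reads were left in the libraries labelled knockdown and 58.4 ± 10.9 CPM in the control libraries (SD, n = 5 each). The ranges, 48.2 to 62.3 CPM in the libraries labelled knockdown and 48.1 to 76.5 CPM in the control libraries, overlapped. With the beta cluster's own density taken away in place of the olfactory density, a measure added after seeing the data, 45.4 ± 5.94 CPM were left in the libraries labelled knockdown and 41.7 ± 8.93 CPM in the control libraries. The remainder after the olfactory density was smaller for the beta cluster, at 13.3 ± 3.12 CPM in the libraries labelled knockdown and 23.9 ± 2.85 CPM in the control libraries. For the alpha cluster it was 3.57 ± 1.35 CPM in the libraries labelled knockdown and 5.63 ± 1.53 CPM in the control libraries.

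**Figure D2:**
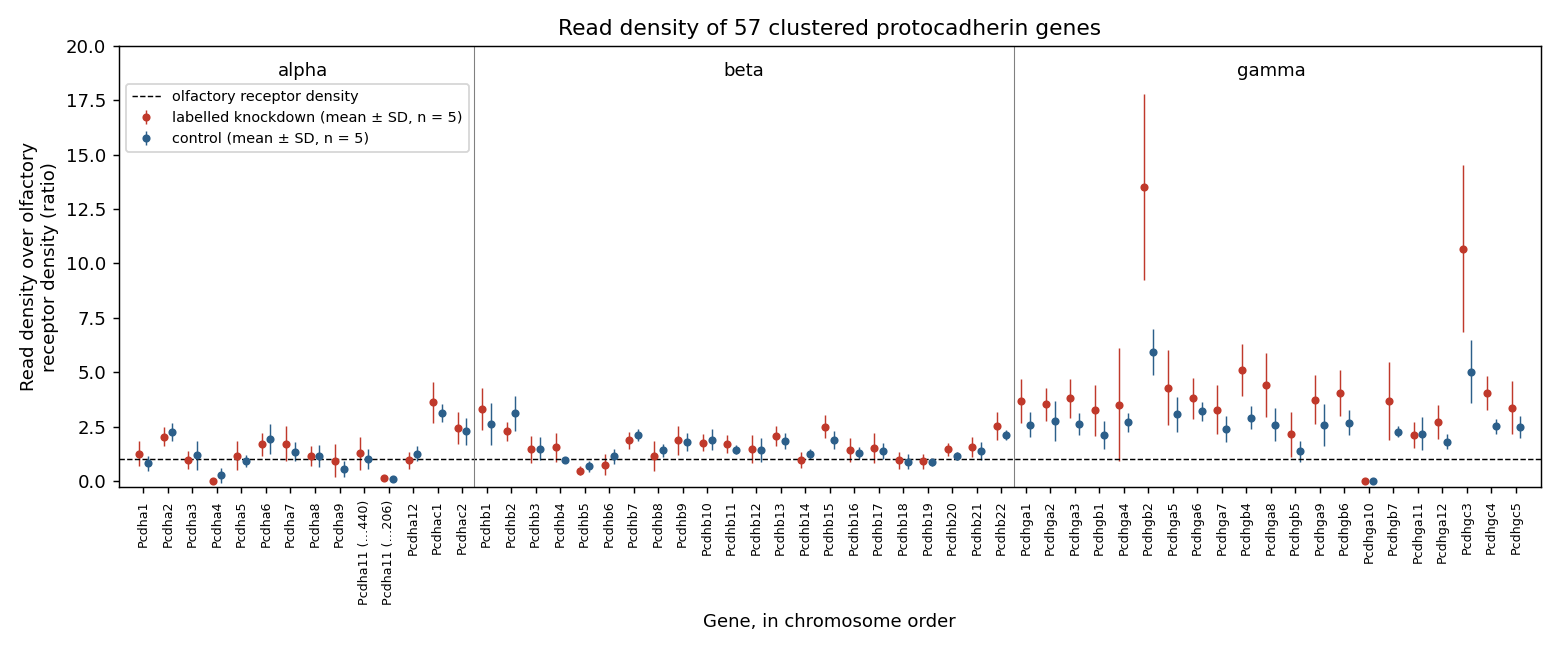
Read density of each of the 57 members over olfactory density (ratio, vertical axis) in chromosome order, as means ± SD (n = 5) for libraries labelled knockdown and control libraries, with the dashed line at a ratio of 1. Pcdhgb2 and Pcdhgc3 stand above the rest of the gamma cluster, and most alpha and beta genes lie below a ratio of 2 in both groups.

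Averaged over all 10 libraries, 19 of the 21 gamma genes had a ratio above 2, against 4 of the 22 beta genes and 3 of the 14 alpha genes, over the bases free on the same strand. Over the bases free on both strands, 19 of the 20 gamma genes that have such bases were above 2, against 5 of the 22 beta genes and 4 of the 14 alpha genes. On the same-strand length, the 2 gamma genes at or below 2 were Pcdhga10, which had no reads, and Pcdhgb5 at 1.76. The gamma genes thus shared a level above most olfactory receptor genes, and 2 of them stood further out.

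Pcdhgb2, a B-type gamma gene, had the highest ratio of all members over the same-strand length, whereas over the bases free on both strands Pcdhgc3 was higher. It had 42, 46, 63, 64 and 69 reads in the libraries labelled knockdown, against 35, 51, 53, 58 and 48 reads in the control libraries. Its level was 9.92 ± 1.85 CPM in the libraries labelled knockdown and 9.20 ± 1.79 CPM in the control libraries (SD, n = 5 each). The groups overlapped in reads and in CPM. Its density over olfactory density was 8.64, 11.5, 18.2, 11.4 and 17.8 in the libraries labelled knockdown, against 4.54, 5.21, 6.32, 6.33 and 7.22 in the control libraries, with no overlap.

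Pcdhgc3 is the C-type gamma gene whose protein binds Axin1 and dampens Wnt signalling in mouse cells. It had 31, 65, 62, 58 and 56 reads in the libraries labelled knockdown, against 36, 56, 73, 42 and 47 reads in the control libraries. Its level was 9.47 ± 2.10 CPM in the libraries labelled knockdown and 9.55 ± 2.87 CPM in the control libraries, and the groups overlapped. Its density over olfactory density averaged 10.7 ± 3.84 in the libraries labelled knockdown and 5.03 ± 1.43 in the control libraries (SD, n = 5 each). The antisense gene BC037039 shares 1559 bases with it, and over the bases free on both strands the ratio averaged 19.8 in the libraries labelled knockdown and 9.33 in the control libraries.

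Both genes stood apart from their immediate neighbours on the chromosome. Pcdhga4, just before Pcdhgb2, had a ratio of 3.51 ± 2.60 in the libraries labelled knockdown and 2.69 ± 0.447 in the control libraries. Pcdhga5, just after it, had 4.28 ± 1.72 in the libraries labelled knockdown and 3.06 ± 0.818 in the control libraries. The neighbours thus had less of a read density than Pcdhgb2 in both groups. Pcdhga4 and Pcdhga5 were named after their values were seen. The neighbours of Pcdhgc3 are Pcdhga12, at 2.71 ± 0.781 in the libraries labelled knockdown and 1.81 ± 0.326 in the control libraries, and Pcdhgc4, at 4.05 ± 0.775 in the libraries labelled knockdown and 2.50 ± 0.348 in the control libraries (SD, n = 5 each).

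The other C-type genes were lower than Pcdhgc3 in read density. Pcdhgc4, the gamma isoform required for survival of neurons in the mouse, showed no overlap between the groups in its ratio, which was 2.99 to 5.05 in the libraries labelled knockdown and 2.09 to 2.87 in the control libraries. Pcdhgc5 averaged 3.36 ± 1.22 in the libraries labelled knockdown and 2.48 ± 0.494 in the control libraries. In the alpha cluster the C-type genes headed the order. Pcdhac1 averaged 3.61 ± 0.961 in the libraries labelled knockdown and 3.12 ± 0.394 in the control libraries. Pcdhac2, which serotonergic axons of the mouse need to spread out over their targets, averaged 2.44 ± 0.737 in the libraries labelled knockdown and 2.28 ± 0.619 in the control libraries (SD, n = 5 each). Pcdha2 was the third alpha gene above 2 over the same-strand length. It averaged 2.03 ± 0.439 in the libraries labelled knockdown and 2.26 ± 0.422 in the control libraries. The spreads of these 3 alpha genes overlapped those of their neighbours in the order.

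In the beta cluster the highest ratios over the same-strand length belonged to Pcdhb1, Pcdhb2 and Pcdhb22, but over the bases free on both strands Pcdhb12, given above, was higher than these 3. Pcdhb1, the first beta gene, averaged 3.30 ± 0.975 in the libraries labelled knockdown and 2.62 ± 0.970 in the control libraries. Pcdhb2, the next gene, averaged 2.29 ± 0.441 in the libraries labelled knockdown and 3.11 ± 0.822 in the control libraries. Pcdhb22, the last beta gene and the one nearest to 3222401L13Rik within its cluster, averaged 2.54 ± 0.638 in the libraries labelled knockdown and 2.10 ± 0.217 in the control libraries (SD, n = 5 each). All 3 spreads overlapped between groups and with one another.

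The members differed from the olfactory receptor genes in base composition. Median GC content of the variable or only exon was 53.1% in the alpha cluster, 46.0% in the beta cluster and 52.6% in the gamma cluster, against 39.0% over the transcripts of 1134 olfactory receptor genes. Whether base composition bears on the ratios was not tested. Near-identical stretches also make the split of reads among members uncertain, since the sources used here do not state how reads with several matches were handled. Of the 50-base windows in a member's variable exon, a median of 14.7% recurred in another member in the alpha cluster, 4.27% in the beta cluster and 0.60% in the gamma cluster. The largest share in the alpha cluster was 23.4%, in Pcdha7, and the largest in the gamma cluster was 17.2%, in Pcdhgb2.

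The fit of libraries labelled knockdown against control libraries, with TMM scaling, covered 19263 genes, of which 31.3% were called lower and 22.9% higher at an adjusted p under 0.05. Of the 57 members, 43 passed the filter on low counts, and 24 of these fell in the libraries labelled knockdown. All 3 tested alpha genes fell, as did 17 of 20 tested beta genes and 4 of 20 tested gamma genes. None of the 43 rose by edgeR's quasi-likelihood test, none had an unadjusted p under 0.05 in that direction, and none rose by DESeq2 or limma-voom. The median log2 fold change was -0.94 for the alpha genes tested, -0.91 for the beta genes and -0.49 for the gamma genes, against -0.10 over all genes tested.

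The filter bears on these counts. For 11 of the 43 members tested, the mean was under 10 reads in the libraries labelled knockdown, and for none was it under 10 reads in the control libraries, so members could enter the fit through the control group alone. With no filter other than 1 read, 56 members were tested, 13 fell and 0 rose by edgeR's quasi-likelihood test, beside 15.0% of 48620 genes called lower and 12% called higher. Those 13 were 5 of 14 alpha genes, 7 of 22 beta genes and 1 of 20 gamma genes. When the reads expected from the olfactory density were subtracted first, 20 members were tested and 1, Pcdhb2, was called lower. The share of all genes called lower after subtraction is not given here. Lane 7 alone gave 20 members called lower, beside 28.9% of 19984 genes. Lane 8 alone, with 2 libraries in each group, gave 0 members called lower by edgeR's quasi-likelihood test, 2 with an unadjusted p under 0.05, and only 153 genes called lower among all 20424 tested.

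**Figure D3:**
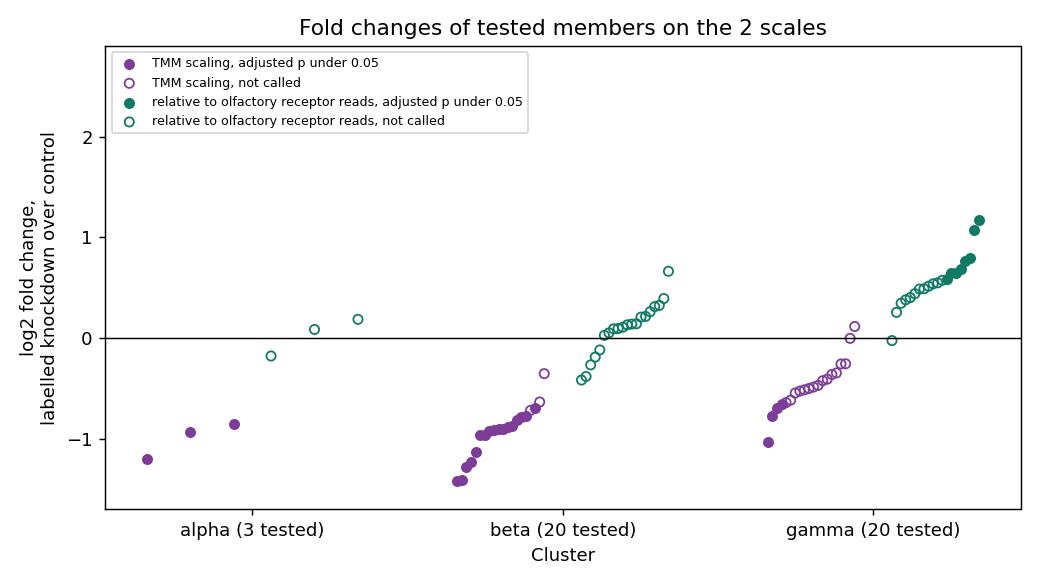
log2 fold change of the 43 tested members, libraries labelled knockdown over control libraries (vertical axis), by cluster, after TMM scaling (left of each pair) and relative to olfactory receptor reads (right of each pair). Filled points passed an adjusted p of 0.05; with TMM scaling the members lie between -1.42 and 0.11, and relative to olfactory receptor reads the called members all lie above 0 and all belong to the gamma cluster.

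In the alpha cluster, Pcdha2 had 9, 7, 7, 7 and 9 reads in the libraries labelled knockdown, against 20, 18, 19, 17 and 11 reads in the control libraries. Its log2 fold change was -1.21 (adjusted p = 0.00282, edgeR's quasi-likelihood test). Pcdhac1 had 13, 12, 17, 17 and 12 reads in the libraries labelled knockdown, against 26, 29, 20, 25 and 20 reads in the control libraries. Every library labelled knockdown was below every control library for both genes. For Pcdhac1 the log2 fold change was -0.85 (adjusted p = 0.00947). Pcdhac2 had 16, 9, 9, 9 and 14 reads in the libraries labelled knockdown, against 24, 19, 28, 18 and 14 reads in the control libraries, with an overlap and a log2 fold change of -0.94 (adjusted p = 0.00931). The 11 alpha genes that did not pass the filter had at most 2.51 CPM on average in either group.

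In the beta cluster, Pcdhb2 had 11, 8, 10, 15 and 7 reads in the libraries labelled knockdown, against 20, 29, 28, 22 and 30 reads in the control libraries. Pcdhb14 had 10, 6, 14, 21 and 14 reads in the libraries labelled knockdown, against 23, 37, 42, 32 and 28 reads in the control libraries. The groups did not overlap for either gene. The log2 fold changes were -1.42 for Pcdhb2 (adjusted p = 1.09e-04) and -1.41 for Pcdhb14 (adjusted p = 5.4e-05), both by edgeR's quasi-likelihood test. The fold change of Pcdhb14 was -1.85 on lane 7 alone and -0.81 on lane 8 alone. Its read density over olfactory density was near 1 in both groups, at 0.951 ± 0.360 in the libraries labelled knockdown and 1.24 ± 0.244 in the control libraries (SD, n = 5 each).

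Pcdhb22 had 28, 24, 16, 23 and 30 reads in the libraries labelled knockdown, against 36, 38, 40, 47 and 33 reads in the control libraries, with no overlap. It fell by 0.77 on the log2 scale (adjusted p = 0.00413, edgeR's quasi-likelihood test). Pcdhb1 also fell, with a log2 fold change of -0.69 (adjusted p = 0.0465), but this call was lost when any 1 of the 5 libraries labelled knockdown or control replicate 1, 4 or 5 was left out (adjusted p up to 0.134), with DESeq2 (adjusted p = 0.0854), with limma-voom (adjusted p = 0.0578), with lane as a covariate (adjusted p = 0.0525), on lane 7 alone (adjusted p = 0.194) and with no filter (adjusted p = 0.153). The 3 tested beta genes that were not called were Pcdhb4, Pcdhb15 and Pcdhb20, with log2 fold changes of -0.35, -0.64 and -0.72 in that order.

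In the gamma cluster, the genes called lower were Pcdhga2, Pcdhga6, Pcdhga11 and Pcdhgc5. Pcdhga11 had a log2 fold change of -1.03 (adjusted p = 0.00872), and its groups did not overlap in CPM, at 1.51 ± 0.327 in the libraries labelled knockdown and 3.09 ± 0.493 in the control libraries. Pcdhga6 had -0.77 (adjusted p = 0.0182), Pcdhgc5 had -0.66 (adjusted p = 0.0194) and Pcdhga2 had -0.69 (adjusted p = 0.0480), all by edgeR's quasi-likelihood test. Without control replicate 2, the adjusted p was 0.0911 for Pcdhga6, 0.0863 for Pcdhgc5 and 0.344 for Pcdhga2. The call of Pcdhga6 was also lost without knockdown replicate 2 (adjusted p = 0.0669) and that of Pcdhgc5 without knockdown replicate 5 (adjusted p = 0.0917). The call of Pcdhga2 was lost without any of 6 libraries, these being control replicates 2 and 3 and knockdown replicates 1, 2, 3 and 5, and also with DESeq2 (adjusted p = 0.0970), limma-voom (adjusted p = 0.0886) and lane as a covariate (adjusted p = 0.0617). With no filter on low counts, the adjusted p was 0.146 for Pcdhga2, 0.0695 for Pcdhga6 and 0.0779 for Pcdhgc5.

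The gamma genes with the highest read density did not pass the test in either direction on this scale. Pcdhgb2 had a log2 fold change of 0.11 (SE 0.17, adjusted p = 0.588) and Pcdhgc3 of -0.00 (SE 0.18, adjusted p = 0.989), by edgeR's quasi-likelihood test. The sign was not stable in either gene. For Pcdhgb2 the value was -0.10 with library totals and -0.03 with upper-quartile scaling, and for Pcdhgc3 it was -0.16 on lane 7 alone and 0.31 on lane 8 alone. Pcdhgb4 had -0.26 and Pcdhgc4 -0.35, neither of them called.

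The 3 members nearest to the targeted gene are the gamma genes that follow it. Pcdhga1, which starts 50 bases after the end of 3222401L13Rik, had 17, 17, 22, 23 and 13 reads in the libraries labelled knockdown, against 16, 26, 30, 30 and 24 reads in the control libraries. The groups overlapped, and the log2 fold change was -0.55 (adjusted p = 0.0790, edgeR's quasi-likelihood test). Pcdhga2 had -0.69, as given above, and Pcdhga3 had -0.53 (adjusted p = 0.123). All 3 values lie below -0.49, the median of the 20 gamma genes tested, and that of Pcdhga2 lies furthest below it. They are within the range of these 20 genes, -1.03 to 0.11. Whether nearness to the targeted gene, which was itself not lower, bears on them was not tested.

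The same counts were then tested relative to the olfactory receptor reads of each library. On this scale the median over all 19263 genes was 0.94, 62.2% of genes were called higher and 0.306% lower. Of the 43 members, 8 rose and 0 fell by edgeR's quasi-likelihood test, and at an unadjusted p under 0.05 there were 10 higher and 0 lower. All 8 were gamma genes, and 8 of 20 gamma genes tested is a smaller share than the 62.2% of all genes. The medians were 0.09 for the alpha genes tested, 0.12 for the beta genes and 0.54 for the gamma genes.

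Pcdhgb2 had the largest value among the members, 1.18 (SE 0.23, 95% interval 0.72 to 1.63, adjusted p = 1.82e-06). Pcdhgc3 followed at 1.07 (SE 0.23, adjusted p = 9.78e-06). These 2 genes lay slightly above the median of all genes, and the other 6 lay below it. Pcdhgb4 had 0.79 (adjusted p = 0.00142), Pcdhga8 had 0.77 (adjusted p = 0.00811) and Pcdhgc4 had 0.68 (adjusted p = 0.0100). Pcdhgb5 had 0.65, Pcdhgb7 had 0.64 and Pcdhga12 had 0.58, with adjusted p of 0.0342, 0.0423 and 0.0349 in that order, all by edgeR's quasi-likelihood test. The calls of these last 3 genes were lost without single libraries. For Pcdhgb5 these were knockdown replicate 2 (adjusted p = 0.402) and control replicates 2, 3 and 4. For Pcdhgb7 they were knockdown replicates 3 (adjusted p = 0.341) and 5 and control replicates 1, 2 and 4. For Pcdhga12 they were knockdown replicates 1 (adjusted p = 0.162), 3 and 4 and control replicates 1 and 2. The targeted gene itself had 0.86 (SE 0.23, adjusted p = 5.05e-04) on this scale.

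**Figure D4:**
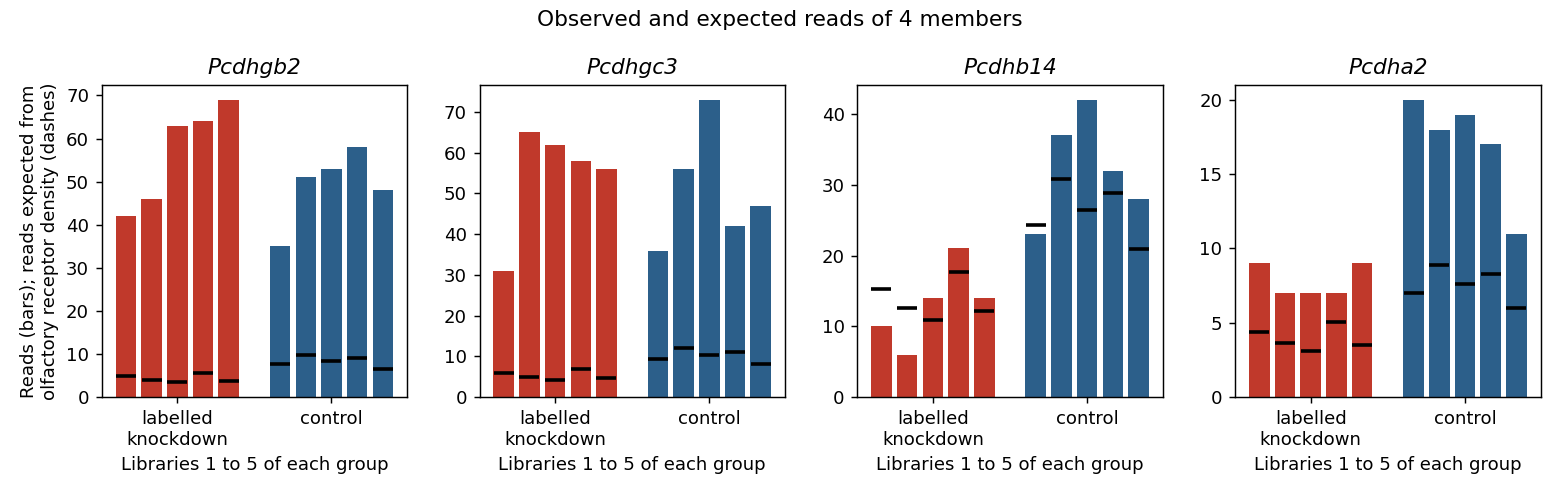
Reads per library (bars) of Pcdhgb2, Pcdhgc3, Pcdhb14 and Pcdha2 in the 5 libraries labelled knockdown (left) and the 5 control libraries (right), with dashes at the reads expected from the olfactory density of the same library. Pcdhgb2 and Pcdhgc3 exceed the dashes in every library, whereas the bars of Pcdhb14 lie below them in some libraries and above them in others, at ratios of 0.478 to 1.59.

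How much of a gene's count the olfactory density would supply differed among the members. This background share, the reads expected over the 10 libraries as a percentage of the reads observed, was 12% for Pcdhgb2 and 14.8% for Pcdhgc3, the lowest of all members. It was 27.7% for Pcdhgb4, 46.4% for Pcdha2 and 88.0% for Pcdhb14. For the targeted gene it was 48.2%. Across all tested genes, the median fold change with TMM scaling was lower in each bin of higher share. The members' median was lower in each bin up to 70% and no lower from 70% upwards.

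At a share under 5%, where no member lay, the median log2 fold change of 4758 genes was 0.24, and 75.2% of these genes rose and 0.483% fell. Among genes with a share of 5 to 20%, the median log2 fold change was 0.06 for 2 members and 0.07 for all 5511 genes. At 20 to 40% it was -0.54 for 18 members and -0.58 for 3891 genes. At 40 to 70% it was -0.92 for 14 members and -0.89 for 3753 genes. From 70% upwards it was -0.90 for 9 members and -1.01 for 1335 genes. The medians of members and of all genes were furthest apart in the last bin. The share and the fold change come from the same counts, so these medians are a description.

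**Figure D5:**
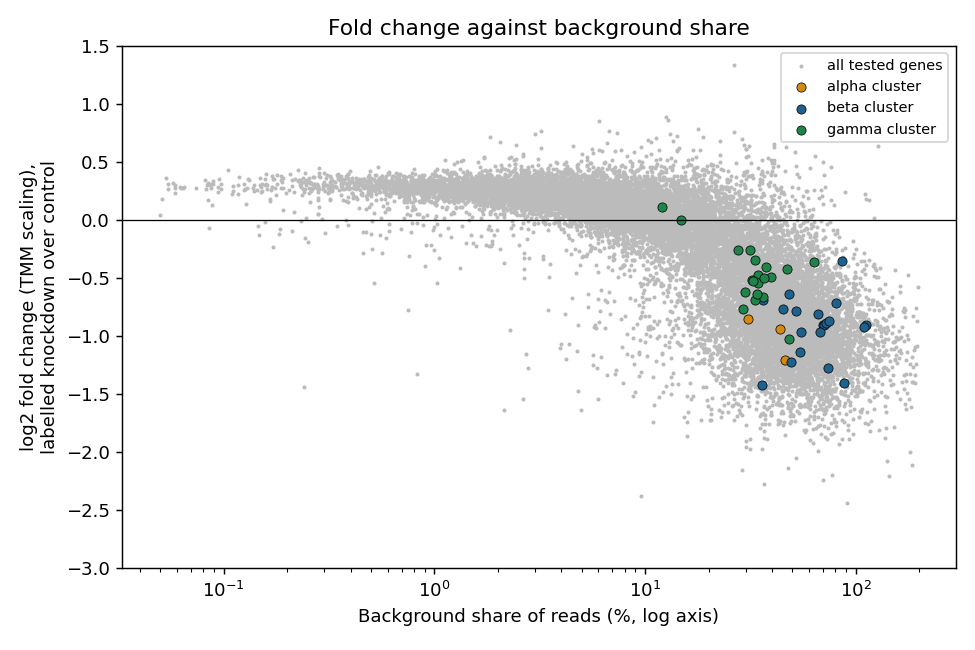
log2 fold change after TMM scaling, libraries labelled knockdown over control libraries (vertical axis), against background share (percent, log axis), for all tested genes (grey) and tested members by cluster. The members lie within the grey cloud, with Pcdhgb2 and Pcdhgc3 at the lowest shares (12% and 14.8%) near a fold change of 0.

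The count of calls also differed between the bins. At 20 to 40% share, 6 of 18 members fell, beside 49.3% of all genes. At 40 to 70%, 11 of 14 members fell, beside 71.1% of all genes, and from 70% upwards 7 of 9 members fell, beside 78.8%. Neither of the 2 members at 5 to 20% fell, beside 6.51% of all genes.

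The nonclustered protocadherins, encoded as single genes, gave a comparison outside the clusters. Pcdh1 and Pcdh12 also lie on chromosome 18, beyond the gamma cluster, at chr18:38185914-38212053 and chr18:38267089-38284402, and the others lie on other chromosomes. Of 12 genes tested, 9 fell, 0 rose and 3 were not called, with a median log2 fold change of -0.78, by edgeR's quasi-likelihood test, beside 31.3% of all genes called lower and 71.1% of genes at 40 to 70% share. None had an unadjusted p under 0.05 in the higher direction. Pcdh12, an endothelial protocadherin, had 3.70 ± 1.24 CPM in the libraries labelled knockdown and 7.40 ± 1.95 CPM in the control libraries. Pcdh15, the tip-link protein of hair cells, had 10.1 ± 4.34 CPM in the libraries labelled knockdown and 20.4 ± 3.41 CPM in the control libraries (SD, n = 5 each). Pcdh8 and Pcdh10 fell by 1.00 and 0.85 on the log2 scale. The median background share of the list was 65.8%, and its summed read density over olfactory density was 1.45 in the libraries labelled knockdown and 1.21 in the control libraries, close to that of the alpha and beta clusters. Relative to olfactory receptor reads their median was 0.24, 0 fell by edgeR's quasi-likelihood test (0 also at an unadjusted p under 0.05), and Pcdh7 rose, by 0.82. On that scale 62.2% of all genes and 12.3% of genes at 40 to 70% share rose.

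Genes known to act on protocadherin promoters and chromatin had a summed read density over olfactory density of 69.3 in the libraries labelled knockdown and 27.7 in the control libraries, far above the clusters. Of 19 tested, 16 rose, 0 fell and 3 were not called in the libraries labelled knockdown by edgeR's quasi-likelihood test. Of all genes tested 22.9% rose, and of genes with a share under 5% it was 75.2%, with a median log2 fold change of 0.24. The median log2 fold change of these 19 genes was 0.29, and their median background share was 2.79%. None had an unadjusted p under 0.05 in the lower direction. Ctcf, the insulator factor that binds protocadherin promoters, had 69.3 ± 5.18 CPM in the libraries labelled knockdown and 56.1 ± 3.35 CPM in the control libraries. The cohesin subunit gene Rad21 had 273 ± 6.27 CPM in the libraries labelled knockdown and 214 ± 25.5 CPM in the control libraries, a log2 fold change of 0.35. Stag2, another cohesin subunit gene, had 0.36, the cohesin loader gene Nipbl 0.30 and the DNA methyltransferase gene Dnmt3a 0.33. Relative to olfactory receptor reads all 19 rose, with a median of 1.33. On that scale 62.2% of all genes rose, and 99.3% of genes with a share under 5%, whose median was 1.28. With library totals in place of TMM 5 of the 19 rose, and the median fold change of all genes then was -0.30.

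Of 18 genes for protein partners and effectors of clustered protocadherins, 12 rose, 3 fell and 3 were not called, and the list had a median background share of 1.82% and a median log2 fold change of 0.25. All genes with a share under 5%, of which 75.2% rose, had a median of 0.24. Adam10, the protease that sheds protocadherin ectodomains, had 206 ± 18.2 CPM in the libraries labelled knockdown and 160 ± 12.2 CPM in the control libraries. Cyfip1, Cyfip2 and Wasf2, subunits of the WAVE actin regulator, had log2 fold changes of 0.28, 0.30 and 0.28. With library totals 1 of the 18 rose. The 3 that fell were the receptor kinase gene Ret (-0.76), the WAVE subunit gene Wasf1 (-0.72) and the focal adhesion kinase gene Ptk2 (-0.23), with background shares of 43.8%, 32.5% and 15.0% in that order.

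Among 17 genes between and beside the clusters on chromosome 18, 14 were tested, 8 rose, 1 fell and 5 were not called, and the median background share of those tested was 3.16%. The share of genes that rose was 22.9% over all genes and 75.2% under a background share of 5%. The splicing factor genes Zmat2 and Ik, on the alpha side of the clusters, had log2 fold changes of 0.39 and 0.34. Taf7, a subunit gene of the general transcription factor TFIID that lies between the clusters, had 29.2 ± 3.14 CPM in the libraries labelled knockdown and 20.8 ± 3.01 CPM in the control libraries, a log2 fold change of 0.49 (adjusted p = 8.16e-05, edgeR's quasi-likelihood test). Cd14, the co-receptor for lipopolysaccharide, had 467 ± 15.7 CPM in the libraries labelled knockdown and 390 ± 28.0 CPM in the control libraries. Fchsd1 was the gene that fell, by 0.42. With library totals 3 genes rose and 2 fell.

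Markers of the labelled cell type were present in every library. Of 10 microglia markers, 9 rose in the libraries labelled knockdown, beside 22.9% of all genes and 75.2% of genes with a background share under 5%, where the list's median share was 0.499%. Their summed level was 3379 to 3805 CPM in that group and 2742 to 3198 CPM in the control group. Aif1, Ptprc, Csf1r and Cx3cr1 had log2 fold changes of 0.35, 0.32, 0.30 and 0.29. Tmem119 was low, at 2.72 ± 0.911 CPM in the libraries labelled knockdown and 2.84 ± 1.19 CPM in the control libraries (SD, n = 5 each).

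Markers of neurons, the cells best known for clustered protocadherins, were low. Of all genes tested 31.3% were called lower, and of genes at 40 to 70% background share 71.1%. Of 10 neuron markers 8 were tested, 6 fell and 0 rose by edgeR's quasi-likelihood test, with 0 at an unadjusted p under 0.05 in the higher direction. Their summed level was 28.4 to 42.3 CPM in the libraries labelled knockdown and 52.3 to 78.8 CPM in the control libraries. Their summed read density over olfactory density was 2.04 in the libraries labelled knockdown and 1.65 in the control libraries, with a median background share of 47.8%. Syt1, Map2, Nefl and Rbfox3 had log2 fold changes of -1.32, -0.77, -1.26 and -0.75. Relative to olfactory receptor reads, Syn1 and Stmn2 rose by 0.96 and 0.59, and no neuron marker fell or had an unadjusted p under 0.05 in that direction, by edgeR's quasi-likelihood test. On that scale 62.2% of all genes and 12.3% of genes at 40 to 70% share rose.

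Markers of glial cells other than microglia gave a mixed picture. The 9 astrocyte markers summed to 168 to 203 CPM in the libraries labelled knockdown and 175 to 195 CPM in the control libraries. Of these, 2 rose, 2 fell and 5 were not called, beside 22.9% of all genes called higher and 31.3% called lower. The list's median background share was 15.9%, and of genes at 5 to 20% share 15.0% rose and 6.51% fell. Gfap had 65.4 ± 10.1 CPM in the libraries labelled knockdown and 52.5 ± 4.61 CPM in the control libraries, and Aqp4 a log2 fold change of 0.28, while Slc1a2 and Slc1a3 had -0.43 and -0.32. None of these 4 calls held under every setting. With library totals the adjusted p was 0.198 for Gfap and 0.557 for Aqp4, with no filter it was 0.0553 for Slc1a2 and 0.230 for Slc1a3, and without control replicate 1 it was 0.111 for Slc1a3, all by edgeR's quasi-likelihood test.

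The 8 markers of the oligodendrocyte lineage summed to 97.3 to 106 CPM in the libraries labelled knockdown and 96.4 to 109 CPM in the control libraries. Of 7 tested, 0 rose by edgeR's quasi-likelihood test, as by DESeq2, which gave 1 at an unadjusted p under 0.05. By edgeR's test 2 fell, beside 31.3% of all genes and 71.1% of genes at 40 to 70% background share. The list's median share was 49.7%. Pdgfra was 1 of these 2, with a log2 fold change of -0.79. Its call was lost after subtraction of expected reads (adjusted p = 0.125, edgeR's quasi-likelihood test). Cspg4 had 0.14 and Sox10 -0.46, neither of them called. Of 5 fibroblast markers, 3 were tested and fell, Pdgfrb with -0.91, Col1a2 with -1.16 and Col1a1 with -0.52. The median background share of these 3 was 28.5%. Of all genes 31.3% fell, and of genes at 20 to 40% share 49.3%. By edgeR's quasi-likelihood test the Col1a1 call was lost with no filter (adjusted p = 0.0713) and after subtraction of expected reads (adjusted p = 0.0963). The summed level of the fibroblast markers was 11.6 to 23.1 CPM in the libraries labelled knockdown and 27.0 to 36.2 CPM in the control libraries. No marker of any of these lists had 0 reads in all libraries, and the part of these cells in the protocadherin counts was not tested.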

How the data were processed

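Each deposited file lists raw whole-number counts of reads by gene for 1 library. Per the submitters' processing notes, reads were demultiplexed with bcl2fastq and the genome build was GRCm38 (mm10). No aligner, counting program or annotation is given in the sources used here. The 92 spike-in sequences were left out. Of 55471 genes, 55230 matched GENCODE M21, which gave symbols, exons and coordinates; no member's sequence is printed. Groups and replicates follow the labels, and lanes follow the deposited file names.

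Genes were filtered with filterByExpr, scaled with TMM and tested on all 10 libraries with edgeR 4.0.16's quasi-likelihood test in R 4.3.3 (robust, with only the group in the model); p-values were Benjamini-Hochberg adjusted over all genes, with a threshold of 0.05. A further fit replaced library sizes by the sum of reads of the olfactory receptor genes, without TMM. CPM values are TMM-scaled. Read densities used exon bases shared with no other gene on the same strand, a rule kept although the counts show that bases covered on the opposite strand add no reads either. Cluster ratios have no test. The fits were tested on simulated data. Other fits used DESeq2 1.42.0, limma-voom (limma 3.58.1), other scalings and filters, lanes, the replicate number and left-out libraries. Single values were compared with exact permutation tests over 252 splits. The members, the gene lists and the rule for named genes were chosen with earlier results of these data known. The rule named, per cluster, the 3 members with the highest read density and the 2 with the smallest p, the C-type genes, the 3 members nearest to the targeted gene, members called relative to olfactory receptor reads, members with 1 library apart from its group, and up to 4 genes per list. The value of 1 listed marker is not reported here. Figures were drawn with matplotlib 3.10.9.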

Additional observations from a re-analysis of the deposited data

Results flagged for a closer look

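Of 122 groups of 5 values, namely the CPM of 56 members and of the targeted gene, the ratios of the 3 clusters and the olfactory density, each in both groups, 10 had 1 library whose gap to the others was large for the range of the group, where chance would give about 5% of groups. Control replicate 2 was the high library in 5 of them. In that library Pcdhgb4 had 9.14 CPM (4.97 to 5.46 in the other control libraries), Pcdhgc4 had 7.27 CPM (4.05 to 4.79), Pcdhga6 had 7.07 CPM (3.93 to 4.79), Pcdhgb6 had 6.86 CPM (2.68 to 3.64) and Pcdhb19 had 5.82 CPM (2.37 to 3.32). Control replicate 2 also had the highest olfactory density of the 10 libraries, 0.820 reads per kilobase per 1000000 reads. Knockdown replicate 4 was the high library for Pcdhga6 at 4.60 CPM (1.90 to 2.53 in the other libraries labelled knockdown), Pcdhb19 at 3.89 CPM (1.01 to 1.70) and Pcdhb6 at 2.12 CPM (0.338 to 0.689). It had the highest olfactory density of its group, 0.345. Knockdown replicate 1 was the high library for Pcdhb15 at 2.65 CPM (1.55 to 1.86) and Pcdhb20 at 2.08 CPM (1.18 to 1.38). The part of the olfactory density in these values was not tested.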

How the results depend on the processing

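The 24 members called lower became 1 of 4 tested with at least 5 CPM in 5 libraries (Pcdhb22), 1 of 20 tested after subtraction of the reads expected from olfactory density (Pcdhb2), 13 of 56 with no filter and 0 on lane 8 alone, and 17 to 25 without single libraries. The other fits gave 20 to 30, and 0 members rose in any. The 8 members called higher relative to olfactory receptor reads became 3, 5 and 0 with the 5 CPM filter, no filter and lane 8 alone, 14 relative to vomeronasal receptor reads, and 6 to 10 without single libraries. Of all genes, 31.3% were called lower in the fit with TMM scaling, 15.0% with no filter and 0.749% on lane 8 alone. Relative to olfactory receptor reads 62.2% of all genes were called higher. The shares of all genes under the 5 CPM filter, after subtraction and relative to vomeronasal receptor reads are not given here. The counts in those settings therefore cannot be set beside them. The cause of the shifts in count was not tested. Fewer members were tested with the 5 CPM filter and after subtraction, and fewer libraries on lane 8 alone and without single libraries. With no filter more members were tested (56), and relative to vomeronasal receptor reads the same 43.

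With full exon lengths, cluster density over olfactory density was 0.628 in libraries labelled knockdown and 0.583 in control libraries (alpha), and 2.41 in libraries labelled knockdown and 1.51 in control libraries (gamma). The full lengths count a constant exon once for every gene that lists it. Over bases free on both strands, control values were 1.48 (alpha) and 2.99 (gamma). Over vomeronasal density, libraries labelled knockdown had 2.34 (alpha), 2.55 (beta) and 7.01 (gamma), and control libraries 2.02, 2.28 and 4.06. Without single libraries the values were 1.32 to 1.45 (alpha), 1.51 to 1.53 (beta) and 3.92 to 4.42 (gamma) in libraries labelled knockdown, and 1.25 to 1.32, 1.44 to 1.48 and 2.53 to 2.68 in control libraries.

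The targeted gene's log2 fold change was 0.44 after subtraction, and -0.25 to -0.08 without single libraries. Other signs turned, none of them past the threshold: Pcdhgb2 to -0.10 (totals), -0.034 (upper quartile) and -0.00681 (5 CPM filter), Pcdhgc3 to 0.068 (DESeq2), 0.025 (voom), 0.13 (no filter), 0.00108 (lane as covariate), 0.31 (lane 8) and -0.10 to 0.16 without single libraries, Cspg4 to -0.068 (totals) and -0.00866 (upper quartile), and on lane 8 Pcdhgb4 to 0.083, Pcdhga2 to 0.13, Sox10 to 0.19 and Pcdhgb5, relative to olfactory receptor reads, to -0.15.

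Nonclustered protocadherins that fell numbered 5 with the 5 CPM filter, 5 with no filter, 1 after subtraction (Pcdh12), 0 on lane 8 and 6 to 9 without single libraries. Regulators that rose numbered 5 with totals, where 1 fell, 10 with upper-quartile scaling, 0 on lane 8 and 15 to 17 without single libraries. Partners that rose numbered 1 with totals, 6 after subtraction, 0 on lane 8 and 10 to 14 without single libraries. Partners that fell numbered 1 with DESeq2, after subtraction or with no filter, 0 on lane 8 and 1 to 3 without single libraries. Genes beside the clusters that rose numbered 5 with the 5 CPM filter, 3 after subtraction or with totals, 4 with upper-quartile scaling, 0 on lane 8 and 7 to 8 without single libraries. Those that fell numbered 2 with totals, and 0 on lane 8 or with no filter. The median log2 fold change of all genes was -0.10 with TMM, -0.03 with DESeq2, -0.24 with upper-quartile scaling and -0.30 with totals. With the replicate block, 22 members were lower and 7 higher relative to olfactory receptor reads. Correlations of same-numbered libraries were low, at -0.228 to 0.17. For knockdown replicates 1 to 4 a control library of another number correlated higher, but for replicate 5 the same number did (0.17 against 0.067). These correlations cannot tell whether same-numbered libraries shared a culture or animal. No member had more than 73 reads in a library, which limits what could be detected.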
